A study of Mus musculus with 10 samples.

Results

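The genes described here are 34 genes of mitosis and the G2/M phase of the cell cycle, taken by symbol from the 55487 genes listed for each library. They were picked by name for their part in mitosis, at a time when earlier results of these data were known, and all 34 passed the filter on low counts, among 17321 tested genes. RNA from mouse skin was sequenced with a stranded mRNA kit in 10 mice, 1 library per mouse: 5 wild-type (WT) mice and 5 mice of the genotype labelled Hamp1-KI ker, called KI below. The series concerns overexpression of hepcidin, the peptide hormone encoded by Hamp that blocks the iron exporter ferroportin. The labels do not spell out "ker" and give no driver, founder line, age, sex or body site for either group. Sample titles carry the prefixes EAS37 (3 WT and 2 KI mice) and EAS42 (2 WT and 3 KI mice), which the labels do not explain.

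Before they divide, cells build up mitotic cyclins, which switch on the kinase Cdk1. The chromosomes then condense and attach through kinetochores to spindle microtubules, the spindle checkpoint holds anaphase until every chromosome is attached, and the anaphase-promoting complex degrades the cyclins so that the cell can divide. Most genes of this programme are silent in resting cells and are transcribed in G2 and mitosis under MuvB complexes with B-Myb and FoxM1, which act at the cell cycle genes homology region (CHR) and at the CCAAT boxes bound by NF-Y. In skin, dividing cells are found mainly in the basal epidermis and in the matrix of growing hair follicles.

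RefSeq promoter windows, 250 bases before to 50 bases after the annotated start in build GRCm38.p6, were matched by symbol for 29 of the 34 genes (30 windows, 2 of them for Prc1). Ccna2, Foxm1, Tpx2, Aurkb and Kif20a were not matched. The sequences below run from 120 bases before to 30 bases after the start, 5′ to 3′ on the gene's strand, with TTTGAA (CHR) and CCAAT in capitals in either orientation (TTCAAA and ATTGG are the reverse complements). They are shown because they hold the sequence features that most of the group shares, at Cdk1 (chr10:69352883-69353032, minus strand), Ccnb2 (chr9:70421525-70421674, minus), Hmmr (chr11:40733408-40733557, minus), Cenpa (chr5:30666766-30666915, plus), Cdc20 (chr4:118437314-118437463, minus) and Ube2c (chr2:164769809-164769958, plus), beside Mad2l1 (chr6:66535101-66535250, plus), whose window holds neither word. These 7 were chosen after the matches were seen. The whole window of Mad2l1 ends at 66535270, before the GENCODE gene begins at 66535390. The stretch around that gene start was therefore not searched.
Cdk1: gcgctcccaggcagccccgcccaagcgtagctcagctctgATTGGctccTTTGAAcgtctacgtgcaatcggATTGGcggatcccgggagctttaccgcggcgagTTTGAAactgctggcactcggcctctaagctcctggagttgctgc
Ccnb2: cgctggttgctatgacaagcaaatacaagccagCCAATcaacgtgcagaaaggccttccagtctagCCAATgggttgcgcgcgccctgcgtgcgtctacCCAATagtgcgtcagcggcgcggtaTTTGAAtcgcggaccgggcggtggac
Hmmr: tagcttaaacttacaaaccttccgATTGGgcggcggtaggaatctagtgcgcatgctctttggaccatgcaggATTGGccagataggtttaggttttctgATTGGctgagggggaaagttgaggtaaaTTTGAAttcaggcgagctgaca
Cenpa: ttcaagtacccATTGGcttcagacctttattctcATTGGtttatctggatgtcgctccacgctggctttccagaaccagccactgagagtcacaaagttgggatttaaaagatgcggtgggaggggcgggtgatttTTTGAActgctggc
Cdc20: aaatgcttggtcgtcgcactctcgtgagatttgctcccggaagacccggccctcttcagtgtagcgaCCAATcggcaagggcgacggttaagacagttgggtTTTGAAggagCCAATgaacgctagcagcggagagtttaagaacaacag
Ube2c: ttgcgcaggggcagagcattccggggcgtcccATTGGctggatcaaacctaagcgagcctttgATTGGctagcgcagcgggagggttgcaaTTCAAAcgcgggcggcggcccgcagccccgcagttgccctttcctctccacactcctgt
Mad2l1: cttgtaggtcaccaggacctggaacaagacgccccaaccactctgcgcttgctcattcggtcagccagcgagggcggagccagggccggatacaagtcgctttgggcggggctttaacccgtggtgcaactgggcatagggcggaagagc

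In these sequences the first base of a TTTGAA word lay 15 bases before the start in Cdk1, 18 before it in Cdc20 and 29 before it in Ube2c, and 4, 8 and 16 bases after it in Ccnb2, Hmmr and Cenpa. Counted over all windows, TTTGAA or its variant TTCGAA began no more than 50 bases before the start, or after it, in 22 of the 30 windows (73.3%), against 5.31% of the 32851 windows of all genes. Anywhere in the 300 bases, the shares were 80% and 19.2%. At least 2 CCAAT boxes were present in 53.3% of the windows against 11.7%, and a CHR word together with a CCAAT box in 70% against 7.52%. In the 82 further mitotic genes described below, 43.2% of the windows had a CHR word near the start, and in the 53 genes of G1/S and DNA replication 12% had one. Both strands were searched, and overlapping matches were each counted. A match is a stretch of letters and no evidence of binding. The RefSeq start lay within 100 bases of the 5′ end of the GENCODE gene for 25 of the 30 windows. In Kif2c it lay 3867 bases downstream, and in Mad2l1 it lay upstream, at -169 bases.

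**Figure D1:**
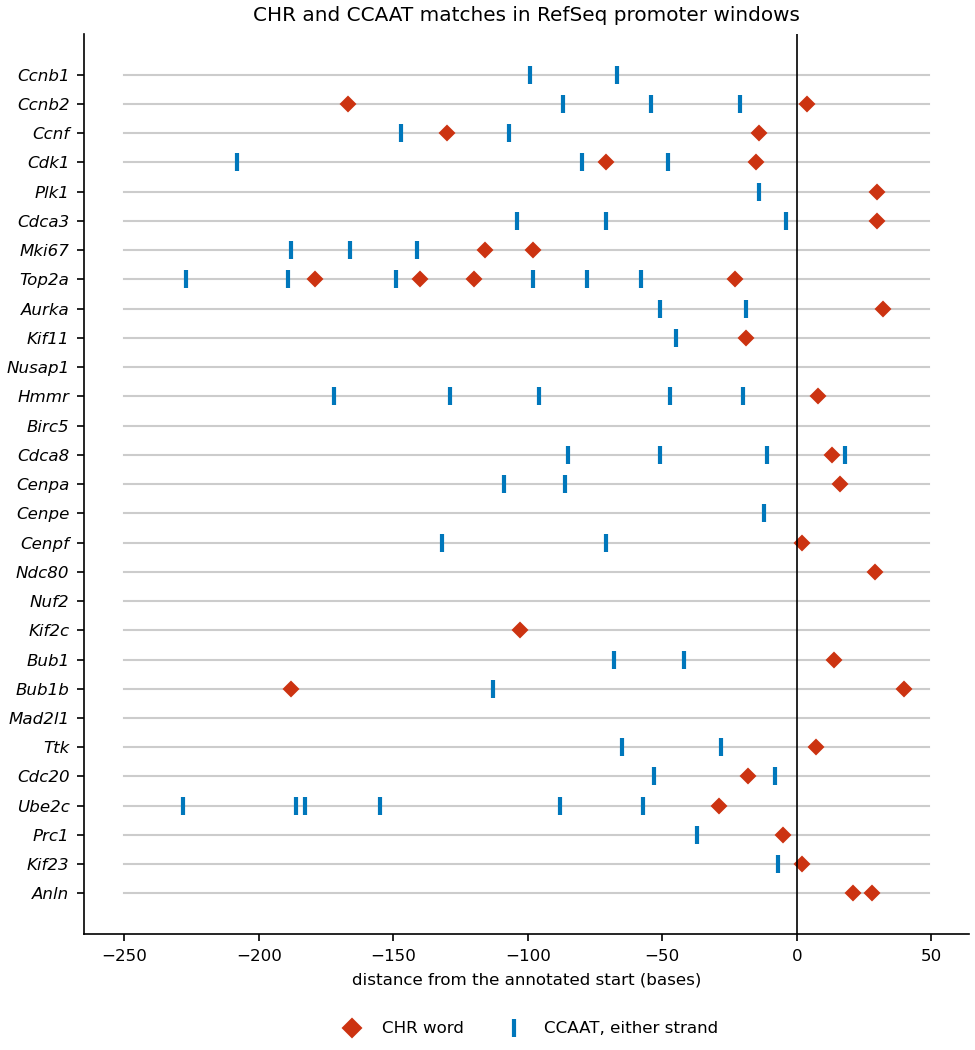
Positions of CHR words (TTTGAA or TTCGAA, red diamonds) and CCAAT boxes (blue ticks) in the promoter windows of 29 genes; the x axis is the distance in bases from the annotated start, marked by the vertical line. In 21 of the genes a CHR word falls from 50 bases before the start onward, while Nusap1, Birc5, Nuf2 and Mad2l1 show neither word.

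The KI libraries held more transcripts of nearly the whole group. Of the 34 genes, 31 were higher in KI skin at an adjusted p under 0.05 (edgeR, Benjamini-Hochberg over all tested genes) and none was lower, while 15.6% of all tested genes were higher and 15.3% lower. At an unadjusted p under 0.05, 33 were higher and 0 lower, while 7508 of the 17321 tested genes passed in either direction. DESeq2 and limma also called 0 of the 34 lower. The median log2 fold change of the group was 1.31 (median SE 0.24), against -0.01 over all tested genes, and 26 of the 34 genes rose at least 2-fold. In 25 genes every KI library stood above every WT library, a separation seen in 10.7% of all tested genes. Ttk, Ube2c and Kif23 were not called. Since the tissue is bulk skin, more cells in mitosis and more of these RNAs per cell cannot be told apart.

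As a check of the genotype labels, Hamp stood at 1.86 to 3.33 CPM (counts scaled to a common library size, with TMM factors) in WT and 85.6 to 168.9 CPM in KI skin, with no overlap (log2 fold change 5.47 ± 0.26 SE, adjusted p = 3.78e-06). The libraries held 18963438 to 26430328 expected counts, and the lowest count of any of the 34 genes in any library was 42. Of cell type markers, 10 of 12 tested T and NK cell genes and 9 of 11 activated keratinocyte genes were higher in KI skin, 2 of 14 hair matrix genes were lower and the other 12 not called, and 3 of 16 skeletal muscle genes were lower and the other 13 not called. Of 11 neutrophil markers only 4 were tested, and all 4 were higher (Ly6g was at 0 counts). S100a8 and S100a9 are on both the neutrophil and the activated keratinocyte list, so these lists are not separate measures. Of suprabasal keratinocyte genes 4 of 9 were higher, and of macrophage and dendritic cell genes 5 of 14. Markers of Schwann cells (7 of 7), endothelium (7 of 8), adipocytes (8 of 10) and smooth muscle (4 of 6) were lower in KI skin. The mean log2 CPM of basal keratinocyte markers lay between 9.01 and 9.20 in WT and between 8.92 and 9.11 in KI skin, so the labelled tissue was present in every library. Of these 12 markers 2 were higher, 3 lower and 7 not called, beside 15.6% higher and 15.3% lower of all tested genes. The steady mean therefore covers calls in both directions.

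**Figure D2:**
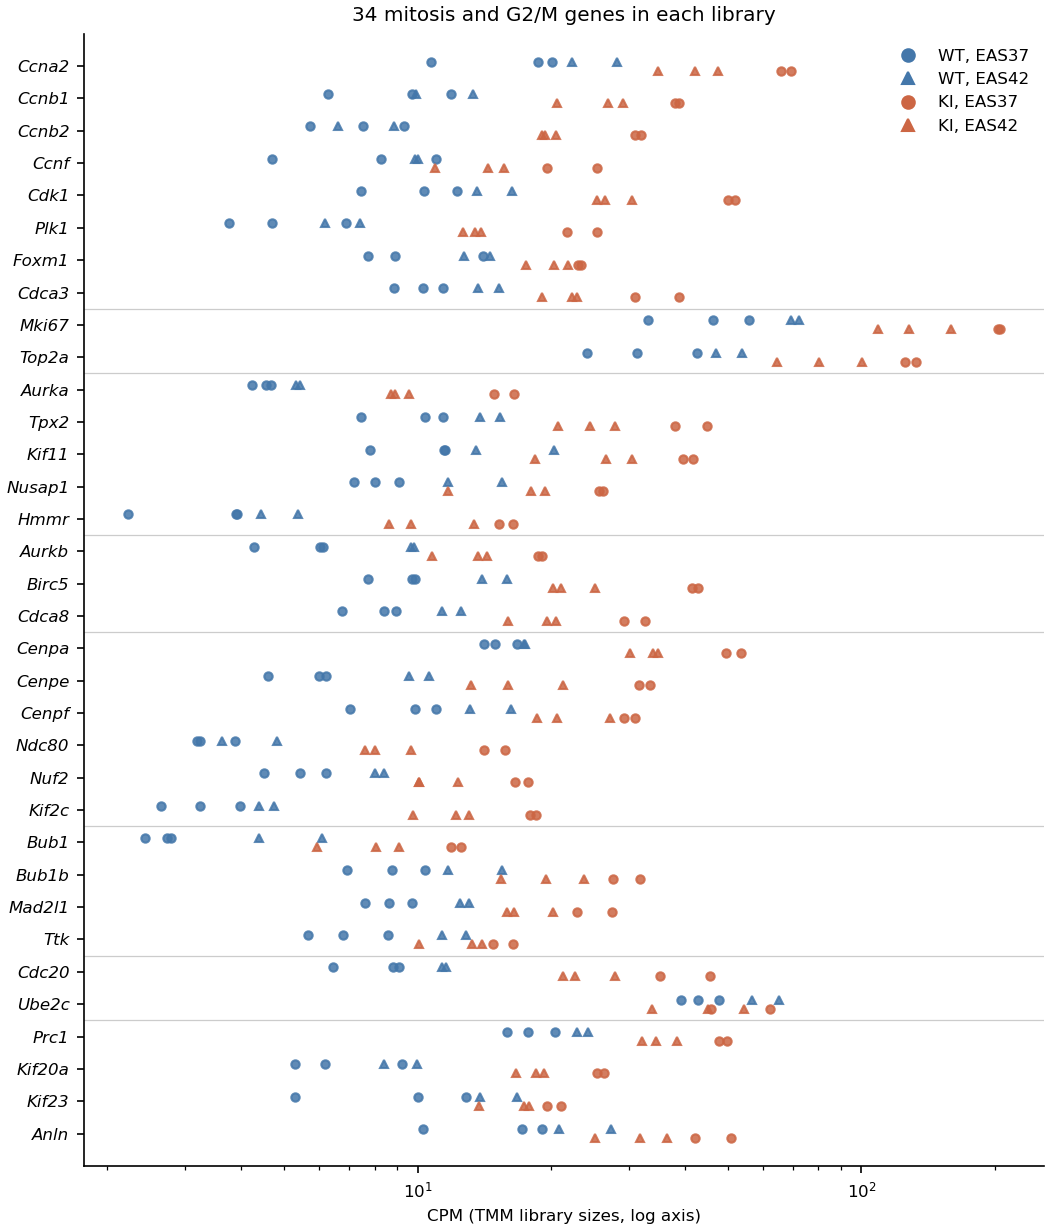
Level of each of the 34 genes in each of the 10 libraries, in CPM on a log axis, WT in blue and KI in red, circles for titles with the prefix EAS37 and triangles for EAS42; grey lines separate the roles. The KI points lie to the right of all WT points in 25 genes. Within KI the 2 circles lie to the right of the triangles in 33 of the 34, a split not counted over all tested genes.

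The genes of mitotic entry rose in KI skin as a whole: 8 of 8 were called higher, with a median log2 fold change of 1.48. Cdk1, the kinase that drives entry into mitosis, stood at 12.3, 7.46, 10.4, 16.3 and 13.6 CPM in WT libraries 1 to 5 and at 52.0, 50.02, 26.5, 30.4 and 25.3 CPM in KI libraries 1 to 5. The groups did not overlap, and KI 1 and KI 2 were the highest (log2 fold change 1.62 ± 0.27, adjusted p = 0.00257). Cyclin B1, the main partner of Cdk1 in mitosis, is encoded by Ccnb1, which was at 11.9, 6.30, 9.73, 13.3 and 9.91 CPM in WT and 38.8, 38.0, 26.9, 29.0 and 20.6 CPM in KI skin (1.58 ± 0.22, adjusted p = 0.00108). Ccnb2, for cyclin B2, had 9.31, 5.72, 7.55, 8.83 and 6.60 CPM in WT against 31.9, 30.9, 19.4, 20.5 and 19.1 CPM in KI skin (1.68 ± 0.20, adjusted p = 0.000437). Its lowest KI library was above 19 CPM and its highest WT library below 10 CPM. Processed pseudogenes of both cyclins took few counts over all libraries, 53.1 for Ccnb1-ps beside 4479.3 for Ccnb1 and 264 for Ccnb2-ps beside 3476 for Ccnb2.

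Ccna2, for the cyclin A2 that acts in S phase and G2, averaged 20.0 ± 6.32 CPM (SD, n = 5) in WT and 52.0 ± 15.1 in KI skin. Plk1, a kinase needed for centrosome maturation and for activating cyclin B1-Cdk1, averaged 5.79 ± 1.53 and 17.4 ± 5.73 CPM. Foxm1, the forkhead transcription factor of the G2/M genes, rose less: 14.1, 7.73, 8.91, 14.6 and 12.8 CPM in WT against 23.0, 23.4, 20.3, 21.9 and 17.6 CPM in KI skin (0.87 ± 0.18, adjusted p = 0.00594), the smallest change called among the 34. Its groups were still apart. Cdca3, a trigger of mitotic entry through the degradation of Wee1, averaged 11.9 ± 2.59 and 26.8 ± 8.04 CPM. In Ccnf, for cyclin F of a ubiquitin ligase, the groups overlapped, since KI 5 at 10.95 CPM lay below WT 1 at 11.03 CPM (0.97 ± 0.26, adjusted p = 0.0185). The effective length of Ccnf, the transcript length available to reads in the deposited tables, was 1.15 times as long in KI as in WT libraries, and Ccnf was not called with the deposited TPM, which scale each library's counts by transcript length.

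Both genes of the proliferating chromosome rose. Mki67, whose protein Ki-67 coats mitotic chromosomes and is the usual stain for dividing cells, was at 55.9, 33.1, 46.3, 69.3 and 72.3 CPM in WT and 203.6, 205.5, 128.3, 159.1 and 109.2 CPM in KI skin. Every KI library had over 100 CPM and no WT library reached 75 CPM (1.54 ± 0.24, adjusted p = 0.00223). Top2a, the topoisomerase that untangles sister chromatids, averaged 39.8 ± 12 and 100.9 ± 29.0 CPM (1.34 ± 0.25, adjusted p = 0.00468), also with no overlap.

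All 5 genes of spindle assembly were called higher, 3 of them with no overlap between the groups. Aurka encodes the centrosomal kinase Aurora A, and it was steady across WT libraries at 4.24, 4.55, 4.67, 5.42 and 5.32 CPM, while KI libraries 1 to 5 held 16.5, 14.9, 9.55, 8.89 and 8.72 CPM. The KI values fell in a higher pair from EAS37 and a lower trio from EAS42 (pooled log2 fold change 1.27 ± 0.20, adjusted p = 0.0020). Tpx2, the activator of Aurora A on microtubules, averaged 11.7 ± 3.06 and 31.2 ± 9.996 CPM. Hmmr, a microtubule-associated protein of the spindle poles, changed most in this set, from 3.93, 2.22, 3.89, 4.44 and 5.37 CPM to 15.3, 16.4, 9.68, 13.4 and 8.62 CPM (1.67 ± 0.25, adjusted p = 0.00142). Kif11, the motor that pushes the spindle poles apart, rose by 1.28 ± 0.28 (adjusted p = 0.00768), with KI 5 at 18.4 CPM below WT 4 at 20.3 CPM. Nusap1, which bundles spindle microtubules, likewise overlapped between KI 5 at 11.7 CPM and WT 4 at 15.5 CPM (0.97 ± 0.26, adjusted p = 0.0181). Leaving out WT 2 and KI 2 together ended the call of Nusap1.

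The chromosomal passenger complex corrects faulty attachments at the centromere and later acts in cytokinesis. Its measured members here, the kinase Aurora B (Aurkb), survivin (Birc5) and borealin (Cdca8), were all called higher with no overlap. Birc5 stood at 9.89, 7.73, 9.73, 15.9 and 14.0 CPM in WT and at 43.0, 41.5, 21.1, 25.1 and 20.2 CPM in KI skin (1.40 ± 0.28, adjusted p = 0.00532). In KI 1 and KI 2 it was over 40 CPM, and in the other 3 KI libraries it was at most 25.1 CPM. Aurkb averaged 7.19 ± 2.45 and 15.3 ± 3.501 CPM, and Cdca8 9.60 ± 2.32 and 23.5 ± 6.97 CPM.

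Centromere and kinetochore genes were higher in 6 of 6 cases, each with no overlap between the groups, and included the gene with the largest change among the 34. Kif2c, a kinesin that depolymerises microtubules at the centromere, was at 3.97, 2.65, 3.23, 4.74 and 4.40 CPM in WT and 18.5, 17.9, 12.2, 13.1 and 9.78 CPM in KI skin (1.91 ± 0.22, adjusted p = 0.000412). Its means differed 3.76-fold, and the lowest KI library had 9.78 CPM against a highest WT value of 4.74 CPM. Cenpa, the histone H3 variant that marks centromeres, varied least among WT libraries of the whole group (coefficient of variation 9.26%), with 16.8, 14.1, 14.98, 17.4 and 17.4 CPM, and reached 53.6, 49.7, 33.9, 34.8 and 30.1 CPM in KI skin (1.32 ± 0.16, adjusted p = 0.000535). Cenpe, the kinesin that moves chromosomes to the spindle equator, averaged 7.39 ± 2.55 and 23.1 ± 9.08 CPM, and Cenpf, a large kinetochore protein, 11.5 ± 3.47 and 25.3 ± 5.43 CPM. Ndc80 and Nuf2 encode partners in the complex that grips microtubules. They rose by 1.55 ± 0.23 and 1.03 ± 0.22, from 3.75 ± 0.66 to 11.03 ± 3.68 CPM and from 6.52 ± 1.67 to 13.4 ± 3.62 CPM.

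Of the 4 spindle checkpoint genes 3 were called higher, and this was the role with most overlap, since Mad2l1 alone separated the groups. Mad2l1, whose protein is part of the inhibitor of Cdc20, averaged 10.3 ± 2.38 CPM in WT and 20.6 ± 4.76 CPM in KI skin (0.999 ± 0.192, adjusted p = 0.00445). Bub1, a checkpoint kinase, was at 2.78, 2.43, 2.72, 4.40 and 6.10 CPM in WT and 11.9, 12.6, 8.07, 9.10 and 5.93 CPM in KI skin (1.37 ± 0.29, adjusted p = 0.00699), so that KI 5 lay below WT 5. Bub1b, the pseudokinase BubR1, rose by 1.15 ± 0.24 (adjusted p = 0.00634), with KI 5 and WT 4 both near 15.5 CPM. Ttk, the Mps1 kinase that starts checkpoint signalling, was not called: 6.80, 5.66, 8.56, 12.9 and 11.4 CPM in WT against 14.8, 16.4, 10.1, 13.3 and 13.9 CPM in KI skin (0.60 ± 0.22, adjusted p = 0.0638). KI 3 lay below WT 4 and WT 5. DESeq2 called Ttk higher.

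The midzone and cytokinesis genes gave 3 calls of 4. Prc1, which crosslinks antiparallel microtubules between the separating chromosomes, was at 20.4, 15.9, 17.8, 24.2 and 22.9 CPM in WT and 47.9, 49.9, 34.5, 38.4 and 32.0 CPM in KI skin (1.0 ± 0.155, adjusted p = 0.00172). The lowest KI library, at 32.0 CPM, was above the highest WT library, at 24.2 CPM. Kif20a, a kinesin that carries regulators to the midzone, averaged 7.82 ± 2.01 and 21.2 ± 4.37 CPM (1.44 ± 0.20, adjusted p = 0.000995). Anln, an actin-binding protein of the cleavage furrow, averaged 18.9 ± 6.16 and 37.3 ± 9.83 CPM (0.98 ± 0.25, adjusted p = 0.0163). KI 5 lay below WT 4 for Anln, its effective length was 1.17 times as long in KI libraries, and with TPM it was not called. Kif23, a kinesin of the centralspindlin complex, was not called at 12.8, 5.29, 9.999, 16.7 and 13.9 CPM in WT against 21.0, 19.6, 17.4, 17.8 and 13.7 CPM in KI skin (0.61 ± 0.25, adjusted p = 0.0918). KI 5 lay below WT 4 and WT 5, and with TPM or effective-length offsets Kif23 was called higher.

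The partners of the anaphase-promoting complex split. Cdc20, which activates the complex at anaphase, was at 8.83, 6.46, 9.10, 11.6 and 11.3 CPM in WT and 45.7, 35.1, 22.7, 27.9 and 21.2 CPM in KI skin, a 3.23-fold difference of means (1.69 ± 0.23, adjusted p = 0.00103) with no overlap. Ube2c, the E2 enzyme that starts ubiquitin chains on the complex's substrates, had 39.1, 47.8, 42.9, 56.8 and 65.2 CPM in WT and 62.1, 45.9, 54.5, 33.8 and 45.2 CPM in KI skin. Its groups overlapped throughout (-0.06 ± 0.18, adjusted p = 0.818).

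For Ube2c the count and the deposited TPM moved differently. Its TPM averaged 40.4 ± 7.24 in WT and 56.6 ± 13.6 in KI skin, and its effective length was 1649 to 1804 bases in WT libraries but 873 to 1376 bases in KI libraries. For 30 of the 34 genes the mean effective length differed by less than 10% between the groups. With the effective lengths as offsets, the log2 fold change of Ube2c turned to 0.58, and with limma on log2(TPM + 1) to 0.46. The gene lies on chromosome 2 from 164769898 to 164778822, plus strand, in build GRCm38. GENCODE M21 gives it a transcript of 967 bases and another of 2191 bases, and the longer one ends in an exon of 1633 bases, from 164777190 to 164778822, which runs across Tnnc2 on the minus strand. Tnnc2 encodes the troponin C of fast skeletal muscle, and 592 exonic bases of Ube2c overlap its exons. Tnnc2 stood at 1024, 1420, 1085, 1612 and 1874 CPM in WT and 410.2, 120.7, 1030, 395.3 and 850.3 CPM in KI skin, and KI 2, with the least Tnnc2, also had the shortest effective length of Ube2c. The strand setting of the counting is not given in the sources used here, so reads of the overlapping stretch cannot be told apart, and the part of Tnnc2 in the Ube2c count was not tested.

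**Figure D3:**
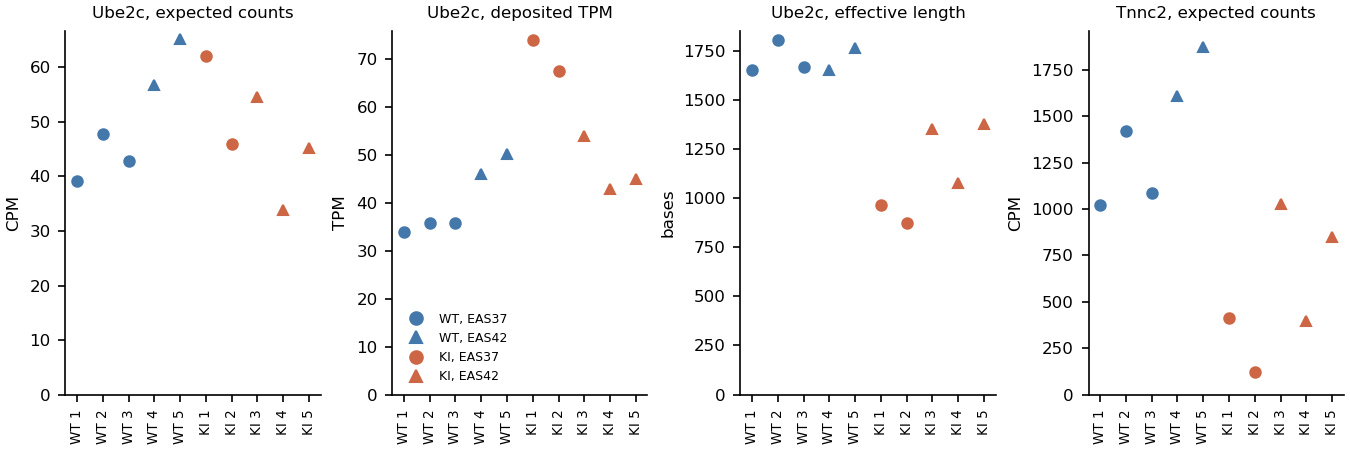
Ube2c in each library as CPM from expected counts, as deposited TPM and as effective length in bases, beside Tnnc2 in CPM; circles mark EAS37 and triangles EAS42, WT in blue and KI in red, with all axes starting at 0. The CPM of the groups overlap (33.8 to 62.1 in KI, 39.1 to 65.2 in WT), while the effective lengths do not (873 to 1376 bases in KI, 1649 to 1804 in WT).

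Exons of 7 other genes of the group overlap a gene on the other strand, for which the same limit holds: Ccna2 with Exosc9, Plk1 with Gm44985, Nusap1 with Oip5, Cdca8 with 9930104L06Rik, Cdc20 with Elovl1, Prc1 with Rccd1 and Kif20a with Cdc23. The largest overlap is that of Kif20a, 1271 of 4338 exonic bases. Cdc23, a subunit of the anaphase-promoting complex, stood at 49.9 to 55.4 CPM in WT and 46.7 to 50.6 CPM in KI skin (-0.13 ± 0.06, adjusted p = 0.11). Elovl1, the partner of Cdc20, was not called either (-0.14 ± 0.26, adjusted p = 0.719). Among these partners Oip5, itself a centromere gene, was called higher (1.13 ± 0.25, adjusted p = 0.00738), at 1.07 to 2.16 CPM in WT and 2.18 to 4.35 CPM in KI skin.

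Per transcript length, the group's levels spanned a wide range. Top2a at 26.2 ± 8.05 TPM, Cenpa at 18.8 ± 1.88 TPM, Cdk1 at 17.8 ± 5.74 TPM and Birc5 at 15.6 ± 4.33 TPM followed Ube2c in WT skin, and Hmmr was lowest at 1.51 ± 0.37 TPM, next to Bub1 at 1.84 ± 0.67 TPM and Kif2c at 1.98 ± 0.44 TPM. The steps from Cenpa to Cdk1, from Cdk1 to Birc5, from Hmmr to Bub1 and from Bub1 to Kif2c were each smaller than the larger SD of the pair. In KI skin the highest means were those of Top2a with 56.9 ± 10.7 TPM, Ube2c with 56.6 ± 13.6, Cdk1 with 49.7 ± 14.0, Cenpa with 43.0 ± 8.17 and Birc5 with 40.5 ± 13.5 TPM. Each step between neighbours in this order was smaller than the larger SD of the pair. The place of Ube2c in both groups rests on its effective lengths and carries the limit of its overlap with Tnnc2. Hmmr stayed lowest at 4.43 ± 1.04 TPM. Summed over the 34 genes, TPM was 294.9 ± 63.8 in WT and 635.7 ± 133.4 in KI skin (SD, n = 5).

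The KI difference was found under both title prefixes, and it was larger under EAS37. Within EAS37 33 genes were called higher (17.4% of all tested genes were), with a median log2 fold change of 1.92, and the exception was Ube2c (0.32, adjusted p = 0.232). Within EAS42 18 were called higher (7.94% of all tested genes), with a median of 0.62. At an unadjusted p under 0.05, 27 were higher there and 1, Ube2c, was lower, while 5401 of the 17321 tested genes passed in either direction. Kif2c (1.35), Ccnb2 (1.35) and Ccnb1 (1.13) changed most within EAS42, while Ttk (0.04), Kif23 (0.09) and Ube2c (-0.45) were not called there. Of the checkpoint genes, Bub1 (0.56, adjusted p = 0.122), Bub1b (0.53, 0.134) and Mad2l1 (0.46, 0.0781) also missed the threshold within EAS42, where 4 of 6 centromere and kinetochore genes passed it. The count within EAS42 rested on few mice, and it was 4 without WT 4, 3 without WT 5 and 8 without KI 4. Calls over all tested genes, in either direction, fell in the same settings, from 2611 to 416, 642 and 1143.

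**Figure D4:**
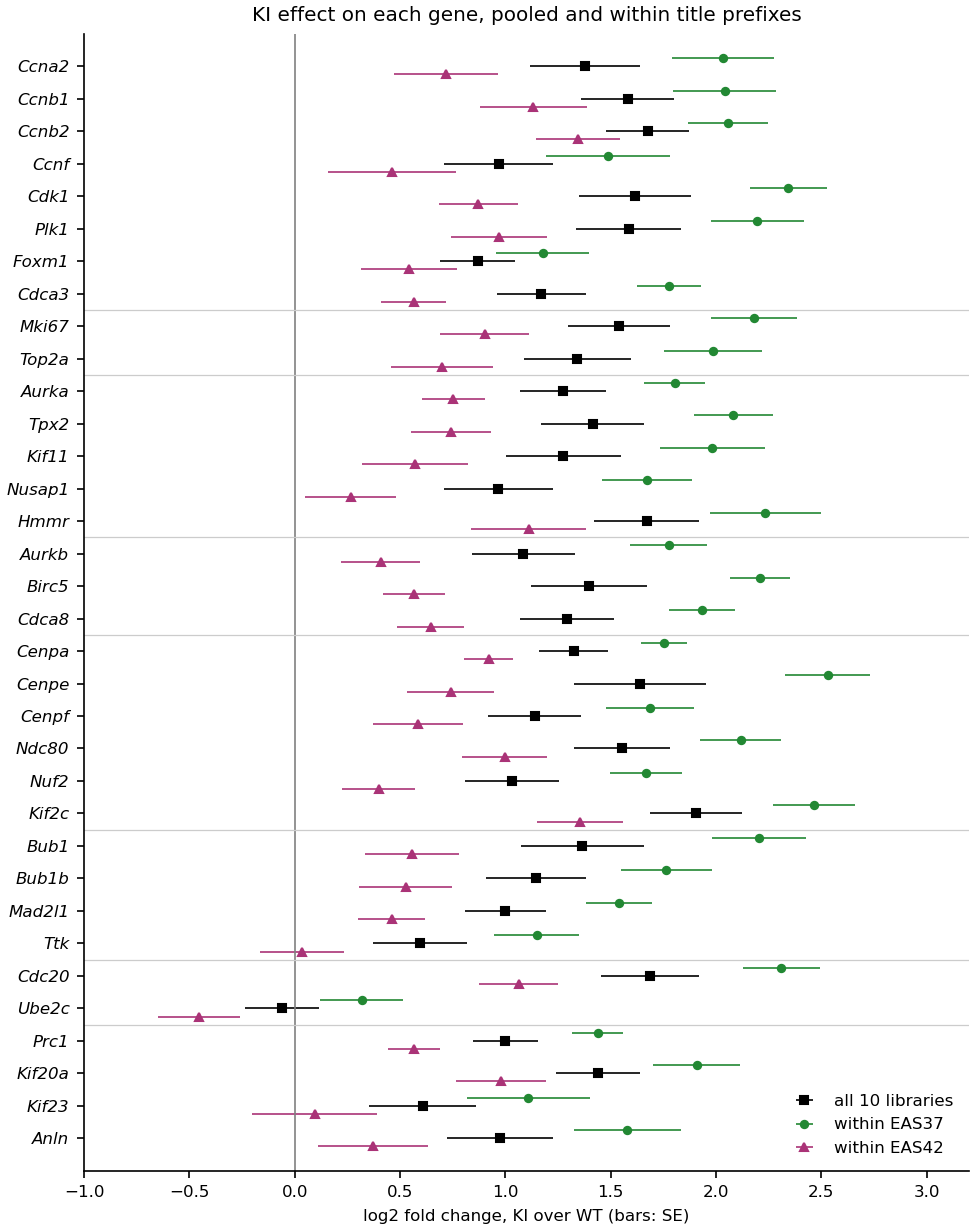
Log2 fold change of KI over WT for each gene with its standard error as bars: black squares for all 10 libraries, green circles within EAS37 and purple triangles within EAS42. The circles lie to the right of the triangles in all 34 genes, and the triangle of Ube2c, at -0.45, is left of 0.

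The estimated effect was larger within EAS37 than within EAS42 for 34 of 34 genes, with a median difference of -1.21 on the log2 scale (EAS42 minus EAS37). The test of that difference called 11 of them, while it called 0.866% of all tested genes in either direction. An unadjusted p under 0.05 was found for 33 of them and for 3066 of the 17321 tested genes. The 11 were Cdk1, Cdca3, Aurka, Tpx2, Aurkb, Birc5, Cdca8, Cenpa, Cenpe, Nuf2 and Bub1, and their adjusted p-values ran from 0.0142 for Birc5 to 0.0496 for Aurka. Cenpe had the largest difference, with a log2 fold change of 2.53 in EAS37 and 0.74 in EAS42 (difference -1.79 ± 0.28, adjusted p = 0.0341). The number of calls depended on single mice: 0 genes were called without WT 4, WT 5, KI 1, KI 2 or KI 3, 2 without WT 1, 4 without WT 3 and 2 without KI 5, while 14 were called without WT 2 and 13 without KI 4. Over all tested genes the calls moved in the same direction, from 150 with all libraries, though not to the same extent. They numbered 1, 10, 1, 2 and 12 without WT 4, WT 5, KI 1, KI 2 and KI 3. Without WT 2 and without KI 4 they numbered 304 and 203. Without WT 1, WT 3 and KI 5 they numbered 37, 131 and 79. Leaving out WT 3 thus changed the calls over all tested genes little, while those among the 34 fell from 11 to 4. In those settings with 0 calls among the 34, 28 to 32 of them kept an unadjusted p under 0.05, a count not made over all tested genes. The difference was negative for all 34 genes in each of the 10 settings.

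Both sides of the comparison differed between the prefixes. Among WT mice all 34 genes were estimated higher in EAS42 (median 0.57), 3 of them called (Aurkb, Birc5 and Bub1; 1.11% of all tested genes were called higher) and 24 with an unadjusted p under 0.05. Of the 17321 tested genes 3153 had such a p in either direction. Among KI mice all 34 were estimated lower in EAS42 (median -0.66), again with 3 called (Aurka, Birc5 and Cenpa; 0.231% of all tested genes were called lower). Both EAS37 KI libraries stood above all EAS42 KI libraries in 33 genes, and both EAS42 WT libraries above all EAS37 WT libraries in 27. The share of all tested genes split in these ways was not counted, so how unusual the counts are cannot be told. Hair matrix markers also followed the prefix: their mean log2 CPM was 3.08 to 6.76 in the 3 EAS37 WT libraries and 3.48 and 4.99 in the EAS37 KI libraries, against 0.84 and 1.05 in EAS42 WT and -0.04 to 0.83 in EAS42 KI libraries. Suprabasal keratinocyte markers, like the 34 genes, were lowest in EAS37 WT (7.78 to 8.55) and highest in EAS37 KI libraries (9.71 and 9.78). Within EAS42 they overlapped, at 9.08 and 9.29 in WT and 9.11 to 9.65 in KI libraries. The mean level of the 34 genes did not overlap there, at 3.63 and 3.77 in WT and 4.16 to 4.52 in KI libraries. The part of either in the difference was not tested. Whether the prefix stands for litter, age or date cannot be told from the labels.

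Libraries kept their places across the group. WT 2 was the lowest WT library in 30 of the 34 genes and WT 4 the highest in 24. KI 5 was the lowest KI library in 29, and KI 1 was the highest in 21 and KI 2 in 13. These orders were not counted over all tested genes, so how unusual they are cannot be told. WT 2 had the highest level of hair matrix markers (6.76) and the lowest mean log2 CPM of the 34 genes (2.83). The median coefficient of variation was 27.3% in WT and 27.1% in KI libraries. With the hair matrix level as a covariate 31 genes were still called higher, against 19% of all tested genes. With the basal keratinocyte level 26 were, the losses being Anln, Aurkb, Ccnf, Kif11 and Nusap1. Over all tested genes the share called higher also fell with that covariate, from 15.6% to 7.72%.

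Skeletal muscle markers were below all WT libraries in 4 of the 5 KI libraries. The 16 markers, none of them at 0, summed to 32510 to 56540 CPM in WT and 3558 to 35160 CPM in KI skin, and their mean log2 CPM ran from 10.53 to 11.27 in WT and from 7.28 in KI 2 to 10.62 in KI 3. With that level as a covariate 5 of the 34 genes were called higher (Ccnb1, Ccnb2, Cenpa, Kif2c and Kif20a), against 1.61% of all tested genes, and the median log2 fold change was 0.91 (median SE 0.31), with 34 of 34 positive. In KI 3, whose muscle level was inside the WT range, 32 of the 34 genes were above every WT library, as were 22.6% of all tested genes. The exceptions were Ttk and Ube2c. T and NK cell markers summed to 29.0 to 49.6 CPM in WT and 76.5 to 95.0 CPM in KI skin, and activated keratinocyte markers to 1035 to 4558 and 5001 to 17630 CPM, with none of either list at 0 in all libraries. Neutrophil markers summed to 7.89 to 9.86 CPM in WT and 76.3 to 158.7 CPM in KI skin, a sum that shares S100a8 and S100a9 with the activated keratinocyte markers. The part of these cells in the mitotic transcripts was not tested.

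Other genes of the division programme were read from lists written by name. Of 82 further mitotic genes, 56 were higher in KI skin and 26 not called (median 0.91), among them Psrc1, a microtubule regulator, with 15.3 ± 1.64 CPM in WT skin against 44.6 ± 11.6 CPM (1.54 ± 0.17, adjusted p = 0.000395). Dlgap5 (1.39 ± 0.18) and Spdl1 (1.37 ± 0.18), a spindle protein and a kinetochore adaptor of dynein, followed. Condensin and cohesin gave 8 of 17 higher (median 0.22), with the smallest p-values for the condensin I subunits Ncapd2 (0.70 ± 0.12), Ncapg (1.58 ± 0.26) and Ncaph (1.08 ± 0.20). Core subunits and regulators of the anaphase-promoting complex moved little: 4 of 17 were higher with a median of 0.06. That share, 23.5%, is too near the 15.6% of all tested genes to set the list apart. Fbxo5, its inhibitor Emi1, was at 7.13 ± 1.39 and 12.2 ± 1.86 CPM (0.77 ± 0.16, adjusted p = 0.00648), while Ube2s (0.39 ± 0.12) and Anapc15 (0.39 ± 0.12) changed less.

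Regulators of the programme were mixed. Over all tested genes 15.6% were higher and 15.3% lower, and the counts for the DREAM and MuvB genes, the G1 cyclins and kinases and the inhibitors are too near those shares to set these lists apart. Of 14 DREAM and MuvB genes 4 were higher and 1 lower (median 0.13): Mybl2, the B-Myb factor that joins MuvB in dividing cells, rose from 7.03 ± 1.997 to 14.5 ± 4.18 CPM (1.04 ± 0.23, adjusted p = 0.00855) with some overlap, Tfdp1, the partner of E2F factors, rose by 0.44 ± 0.08, and Lin52, a MuvB core subunit, fell from 11.3 ± 0.98 to 8.27 ± 0.43 CPM (-0.44 ± 0.10, adjusted p = 0.00896). In the list of G1/S and DNA replication 30 of 53 were higher and 23 not called (median 0.48), with the smallest p-values for Dbf4 (1.31 ± 0.19), Hells (0.98 ± 0.16) and Gins1 (0.93 ± 0.16). G1 cyclins and kinases gave 2 higher and 2 lower of 8, with Myc up by 0.60 ± 0.11, from 54.5 ± 9.28 to 82.6 ± 2.19 CPM, and Ccnd3 (-0.25 ± 0.06) and Mycn (-0.86 ± 0.25) down. Among 13 tested genes listed as cell cycle inhibitors 10 were not called and 3 were lower, Ccng1 (-1.11 ± 0.29), Btg2 (-0.48 ± 0.14) and Cdkn1c (-1.61 ± 0.47). Of these, Btg2 and Cdkn1c restrain proliferation or arrest the cycle.

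The mitotic genes shifted more than those of replication. In each WT library the mean log2 CPM of the 34 genes lay below that of the G1/S and DNA replication list, with differences from -0.70 in WT 2 to -0.32 in WT 4, and in each KI library above it, with differences from 0.03 in KI 5 to 0.43 in KI 2. These are differences between list means, not between levels per length. Within EAS37 45 of the 53 replication genes were called higher (17.4% of all tested genes were). Within EAS42 3 of 53 were, a share too near the 7.94% of all tested genes to set the list apart, with a median of 0.08. Genes with a CHR word near the start had a median log2 fold change of 1.28 (21 genes), those without 1.47 (8 genes) and those with no matched window 1.38 (5 genes), with ranges that overlap. The 8 genes include Kif2c, whose RefSeq start lay 3867 bases downstream of the GENCODE one, and Mad2l1, whose GENCODE start was not searched. Mki67, also among the 8, had TTTGAA words further upstream, at -116 and -98 bases.

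**Figure D5:**
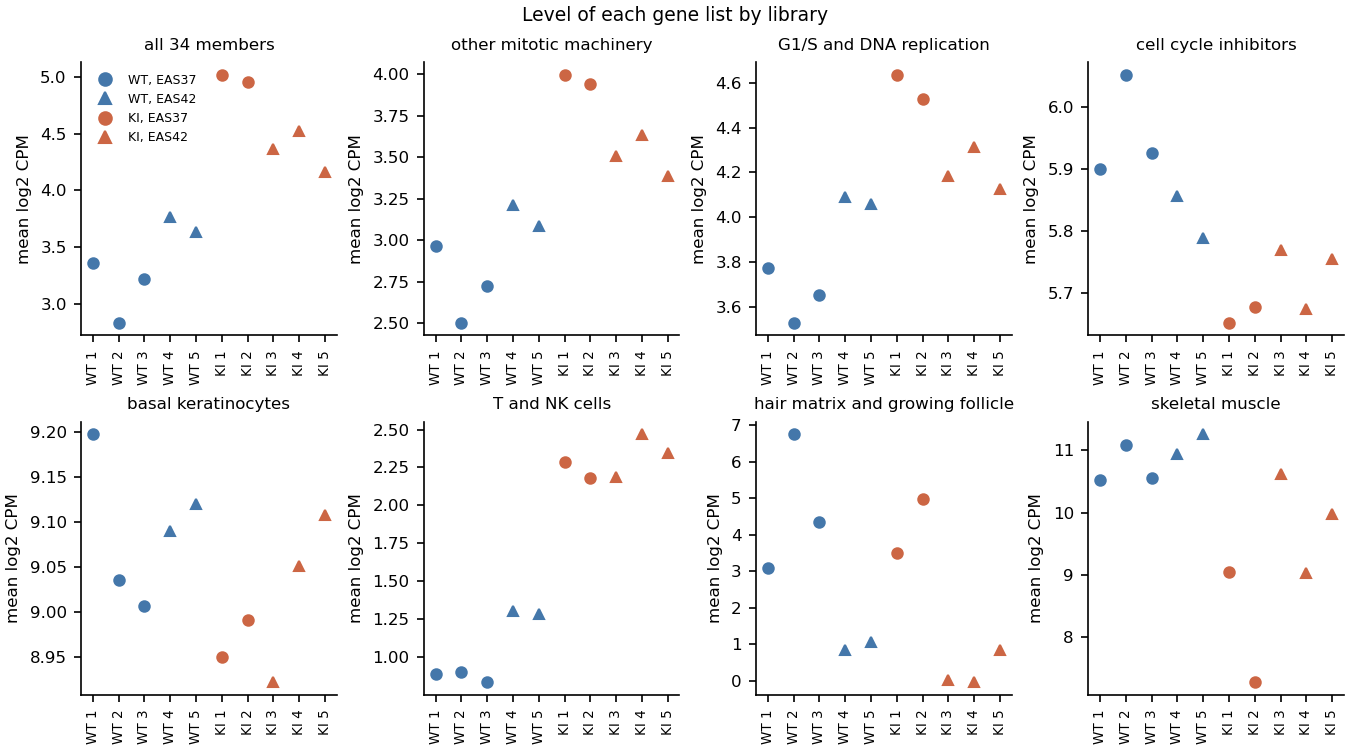
Mean log2 CPM of 8 gene lists in each library, with WT in blue, KI in red, circles for EAS37 and triangles for EAS42; each panel has its own y axis. The 34 genes lie at 2.83 to 3.77 in WT and 4.16 to 5.02 in KI libraries, while basal keratinocyte markers lie between 8.92 and 9.20 throughout and skeletal muscle markers reach from 7.28 to 11.27.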

How the data were processed

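RNA of skin from 5 WT and 5 KI mice was prepared with a stranded mRNA kit, per the labels' protocols. The deposited tables are of the RSEM type, per the file headers, with estimated (expected) counts, TPM and effective lengths (bases) for 55487 genes per library. The expected counts were made by the authors without scaling between libraries, and the TPM by the authors are shares of each library's total. The submitters' processing notes name build GRCm38, DESeq2 1.14.1, STAR 2.5.2b, featureCounts, FastQC and Picard 2.8.1 without their roles. Of RSEM itself neither version, annotation nor strand setting is given in the sources used here. Gene names came from GENCODE M21 (55227 of 55487 identifiers matched).

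Expected counts were rounded to whole numbers, filtered with filterByExpr (minimum count 10, minimum total 15) and tested in edgeR 4.0.16 (TMM scaling, robust quasi-likelihood test, Benjamini-Hochberg over 17321 genes, threshold 0.05). A second model had genotype, title prefix and their interaction. CPM values use TMM library sizes, and list levels are means of log2 CPM (prior count 2). Fold changes are given on the log2 scale with their SE. DESeq2 1.42.0, limma 3.58.1 (also on log2 TPM, pseudocount 1 or 0.1), other scalings and filters, effective-length offsets, covariates and leaving out libraries were alternatives. Leaving out WT 2 and KI 2 together, leaving out single libraries in the prefix model, and the prefix contrasts within WT and within KI were added after seeing the data. All 34 genes are named, and from each further list the 3 genes with the smallest p and any called against its list's majority. The genes and lists were chosen with earlier results of these data known. The script was tested on simulated counts. p-values measure the spread between mice, 1 library each.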

Additional observations from a re-analysis of the deposited data

Results flagged for a closer look

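For 11 genes the KI effect differed between the title prefixes by the interaction test, always in the direction of a smaller effect in EAS42. On the log2 scale the EAS42 effect minus the EAS37 effect was -1.47 for Cdk1, -1.21 for Cdca3, -1.05 for Aurka and -1.34 for Tpx2. It was -1.37 for Aurkb, -1.64 for Birc5 and -1.29 for Cdca8, the passenger complex genes, and -0.83 for Cenpa, -1.79 for Cenpe and -1.27 for Nuf2, at the kinetochore. For Bub1 it was -1.65. When 1 library was left out, 0 to 14 genes were called, the highest count being without WT 2. Calls over all tested genes ran from 1 to 304 in these settings. No library stood apart from the other 4 of its group by Dixon's 95% criterion in any of the 34 genes.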

How the results depend on the processing

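The count of 31 genes called higher was between 30 and 33 in every setting but the marker covariates. There it was 31 with the hair matrix level, 26 with the basal keratinocyte level and 5 with the skeletal muscle level, which also moved the median log2 fold change to 0.907. Over all tested genes 19%, 7.72% and 1.61% were called higher with these covariates, in the same order, and 15.6% without them. With the title prefix as a block the count among the 34 was 31. Leaving out each library in turn gave 3 to 21 genes called higher within EAS42 and 0 to 14 with a difference between prefixes, and without a filter on low counts that difference was called for 18 genes. Over all tested genes, in either direction, calls within EAS42 ran from 416 to 3280 and calls of the difference from 1 to 304. Without the filter the difference was called for 444 of 31097 genes. Ube2c changed sign with limma on log2(TPM + 1), at 0.463, on log2(TPM + 0.1), at 0.472, with effective-length offsets, at 0.581, and with the muscle covariate, at 0.109; leaving out single libraries it ran from -0.164 to 0.06. Kif23 gained a call with TPM, and Ccnf and Anln lost theirs. No paired analysis was made, because the labels name no pairs of WT and KI mice. Each gene had at least 428 counts over the WT libraries.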
